A study of Bos taurus with 48 samples.

Results

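Of 27607 annotated cattle genes, 38 met a rule that asks for lower levels in every control liver than in every other liver. The other livers came from calves on either other milk feeding level, and the 38 genes were chosen by these measured levels. Without the further limits of the rule, 68 genes were lower in every control liver. The highest of the 4 control liver libraries lay below the lowest of the 12 others, and the mean of the 12 was at least 2 CPM and at least 2 times the control mean. CPM is the read count of a gene divided by all reads assigned to genes in that library, times 1000000. Genes found almost only in liver were left out: the restricted liver mean had to be under 50 times the mean plus 0.1 CPM of parenchyma or of fat pad, which removed 1 gene. The choice rests on few libraries. Without control library 2, control library 18 or restricted library 10 it would have taken 93, 78 or 97 genes, each time with all 38 among them.

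The study sequenced ribosomal RNA-depleted total RNA of liver, mammary parenchyma and mammary fat pad from dairy calves. Unlimited calves (Unlimited nutrition in the labels) could drink as much milk replacer as they took during 3 daily meals of 30 minutes. Restricted calves (Restricted nutrition) received less milk replacer per day, and Control calves had standard nutrition by published requirements for dairy cattle. Each tissue had 6 unlimited and 6 restricted libraries, with 4 control libraries in liver, 3 in parenchyma and 4 labelled fat pad. The labels give no age, breed or sex, and do not state whether the libraries within a group come from different calves, so the p-values measure only the spread between these libraries. Libraries are called by the number in their titles.

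The liver takes up nutrients from the gut through the portal vein and sets blood glucose, lipids and plasma proteins. The mammary fat pad of a calf is adipose tissue with connective tissue, vessels and immune cells, and the parenchyma is the branching epithelium with its stroma that grows into it. Milk intake before weaning is known to change the growth of both mammary tissues. The files give Ensembl identifiers with no gene names, and a RefSeq table of a later assembly matched 0 of them. No role can therefore be given for a member, the markers of the tissues could not be checked, and identifiers are limited to a few for each comparison.

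Gene counts totalled 5.59 to 24.2 M (M, 1000000 counts) per library. By rank correlation over 15014 genes with the unlimited and restricted mean of each tissue, all 16 liver libraries lay nearest to liver and all 15 parenchyma libraries nearest to parenchyma. Of the 4 libraries labelled fat pad control, numbers 1, 2 and 21 lay nearest to parenchyma and number 18 nearest to fat pad. Counts of called members, their medians and the fold changes of named members against this group are therefore given with and without library 18. Numbers 1 and 2 of that group carry PAR in their titles, which the labels do not explain, where numbers 18 and 21 carry PPP. The parenchyma control library number 2, not analysed here, carries PAD. Whether the tissue labels of these libraries were exchanged cannot be told from the labels, so every value against the labelled fat pad controls may compare tissues as well as diets. Totals were 9.51 to 16.6 M in unlimited and 12.9 to 17.4 M in restricted liver, against 5.59 to 12.1 M in control liver. The share of uniquely placed reads that fell in genes was 30.9% ± 4.94 in unlimited, 36.5% ± 4.22 in restricted and 28.5% ± 5.28 in control liver (SD, n = 6, 6 and 4). The part of depth and of this share in the choice of the members was not tested.

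In liver the members averaged 2.04 to 798 CPM over the 12 unlimited and restricted libraries, with a median of 8.59 CPM. In control liver they averaged 0.227 to 155 CPM, with a median of 2.21 CPM. The ratio of the 2 means ran from 2.02 to 24.8 with a median of 3.11. The lowest ratios inside the threshold were 2.02, 2.08 and 2.15, and the highest among genes just outside it were 1.94, 1.93 and 1.85. The gap between the groups was narrow for most members: the lowest of the 12 libraries stood 1.01 to 2.39 times above the highest control, with a median of 1.19. Restricted library 10 was the lowest of the 12 for 17 members. The highest control was library 18 for 15 members and library 2 for 14. These values chose the members and carry no test. As background, 59 of 12524 genes at a mean of 2 CPM or more had all controls below the 12, or 0.471%. In edgeR, 27 of the 38 members were called higher in restricted than in control liver, where 0.611% of 14238 genes were higher and 0.239% lower. In unlimited against control liver 16 of the 38 were called higher, where 0.411% of 14114 genes were higher and 0.0709% lower. Nothing is read from these counts, since the same libraries chose the members. The opposite pattern, with control above all 12, at 2 CPM or more in control and by at least 2-fold, was found for 11 genes. In bulk tissue, fewer cells of a type and less RNA per cell cannot be told apart.

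The member with the largest ratio, ENSBTAG00000019460, was at 9.25 CPM at the lowest, 33.4 CPM at the median and 67.5 CPM at the highest in unlimited liver. In restricted liver these values were 16.7, 50.8 and 144 CPM. The 4 control livers had 0.358, 0.580, 3.95 and 2.87 CPM. Levels varied widely within each diet, yet no control reached the lowest of the 12. Control libraries 1 and 2 held 2 and 7 reads of it, and libraries 18 and 21 held 42 and 28. The next, ENSBTAG00000000660, had 1.97 to 4.39 CPM in unlimited and 0.724 to 3.97 CPM in restricted liver, with medians of 2.49 and 2.02 CPM. Control libraries 1, 2, 18 and 21 had 1, 2, 6 and 0 reads of it. It was the lone member with 0 reads in a control liver, and 31 of the 38 had at least 3 reads in every control liver.

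**Figure D1:**
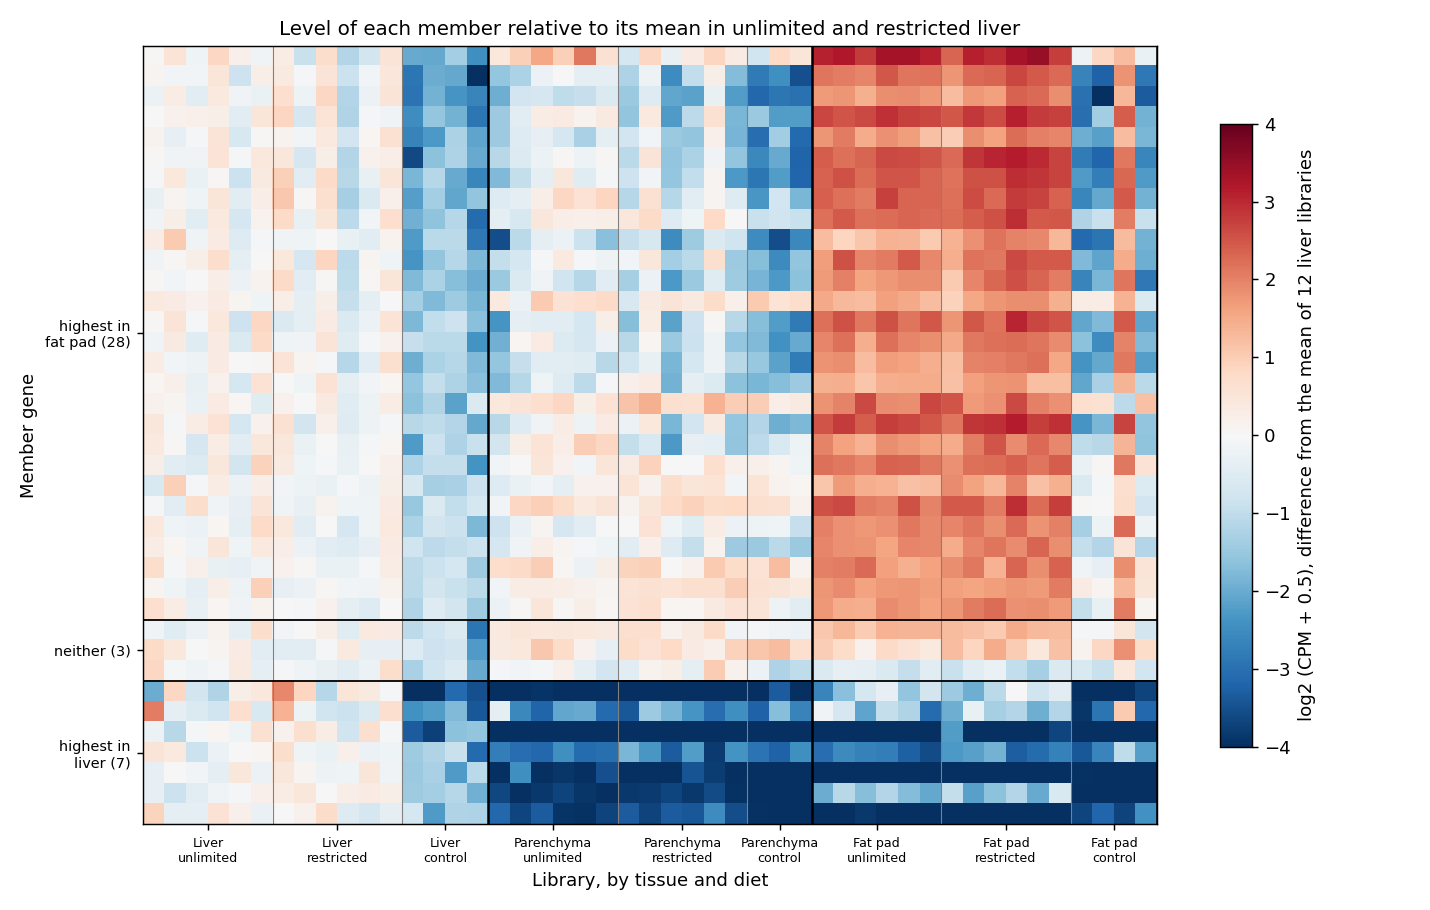
Level of the 38 members (rows) in 47 libraries (columns, by tissue and diet), as log2 of CPM plus 0.5 minus the member's mean over the 12 unlimited and restricted liver libraries; red is above that mean and blue below it, and the colours stop at 4 in either direction. The 28 members highest in fat pad are red across unlimited and restricted fat pad and mostly pale or blue in parenchyma, and the 7 members highest in liver are blue in nearly all mammary libraries.

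The members fell into groups by tissue level, which the rule used only as a loose limit. In unlimited and restricted calves, 28 of the 38 were at least 2 times higher in fat pad than in both liver and parenchyma. Another 7 were at least 2 times higher in liver than in both mammary tissues, and 3 were neither. These groups were formed after the levels were seen. They depend on the scaling: with TMM-scaled library sizes, 22 members were 2 times higher in fat pad than elsewhere and 7 in liver. On either scale, 30 of 38 had a higher mean in fat pad than in liver. The shares over all genes are not given beside these counts. The counts therefore do not show a preference for fat pad that is particular to the members.

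The 28 members highest in fat pad were at modest levels in liver. They averaged 2.04 to 28.5 CPM over the 12 unlimited and restricted livers and 0.227 to 11.7 CPM in control liver, against 8.73 to 126 CPM in unlimited and restricted fat pad. Their liver mean was 10.9% to 36.1% of their fat pad mean in unlimited and restricted calves, with a median of 24.2%. In control liver it was 0.990% to 14.4% of the same fat pad mean, with a median of 6.95%. The proportion to fat pad differed among the members in either liver group, in relative terms more widely in control liver. The 0.990% in control liver was that of ENSBTAG00000000660, which had 9 reads in all control livers together. These percentages are on CPM and would be higher with TMM-scaled library sizes. The TMM factors were 0.679 to 0.942 in unlimited and restricted liver and 0.617 to 0.883 in control liver. In unlimited and restricted fat pad they were 1.23 to 1.46. Summed over the 28, liver libraries held 181 to 318 CPM in unlimited, 148 to 321 CPM in restricted and 56.5 to 101 CPM in control calves. Within the 12 unlimited and restricted livers, the 28 tended to be high or low in the same libraries, with a median pairwise Pearson correlation of 0.53 and 96.3% of gene pairs positive. The same pairs had medians of 0.51 over 12 parenchyma and 0.49 over 12 fat pad libraries. Each correlation shares the depth and composition of its 12 libraries and is a description. No value over all genes is given beside it, so it does not show that the members vary together more than other genes. Of the 12 unlimited and restricted numbers, restricted number 10 had the lowest liver sum, 148 CPM, and the highest fat pad sum, 1401 CPM.

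**Figure D2:**
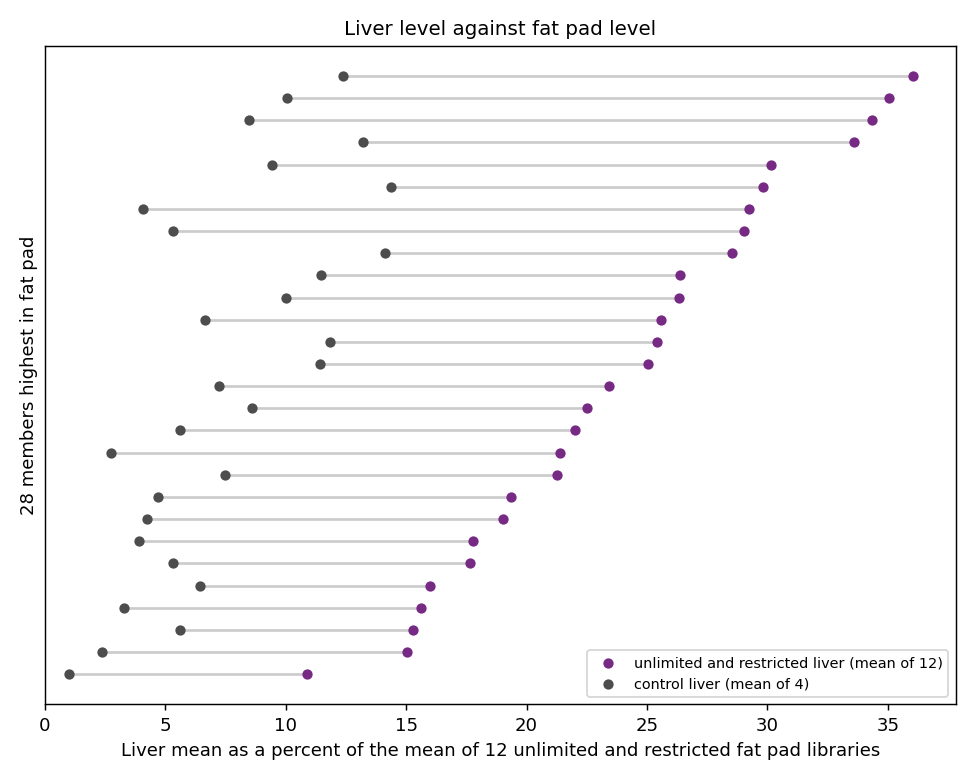
Mean liver CPM of each of the 28 members highest in fat pad, as a percent of its mean CPM in 12 unlimited and restricted fat pad libraries. Purple points are the 12 unlimited and restricted livers (10.9% to 36.1%) and grey points the 4 control livers (0.990% to 14.4%).

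Genes with a stronger preference for fat pad were also described, without a test. At a fat pad mean of 20 CPM or more and at least 8 times both liver and parenchyma, thresholds chosen after the data were seen, there were 180 genes and 0 members. With 0.1 CPM added to each mean, their log2 difference between the 12 unlimited and restricted livers and the control livers had a median of -0.01, with quartiles of -0.45 and 0.33. In parenchyma the same genes had a median of 0.18, with quartiles of -0.25 and 0.63. At 4 times in place of 8 there were 382 genes, of which 9 were members. The other 373 had a liver median of 0.08 with quartiles of -0.31 and 0.61. The thresholds used the mean of the same 12 livers, which favours genes low there. Liver means of the 28 members were at 10.9% or more of fat pad, so few could pass at 8 times. The numbers of members and the liver differences therefore carry no test. Of all 27607 genes 38 were members, so most genes of any such set are no members.

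The 7 members highest in liver included the most abundant of the 38. They averaged 8.95 to 798 CPM over the 12 unlimited and restricted livers and 0.967 to 155 CPM in control liver. Summed, they held 684 to 1652 CPM in unlimited, 960 to 1776 CPM in restricted and 211 to 430 CPM in control liver. These sums rest mostly on the members at 798 and 334 CPM over the 12 livers, which had 155 and 120 CPM in control liver. The median pairwise correlation of the 7 members was 0.16 over the 12 livers, and 61.9% of pairs were positive. ENSBTAG00000010841 had 180, 277 and 377 CPM at the lowest, median and highest unlimited liver, and 331, 394 and 442 CPM in restricted liver. The 4 control livers had 122, 125, 148 and 84.6 CPM. Unlimited livers were between the restricted and the control levels on average, and overlapped with the restricted ones.

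**Figure D3:**
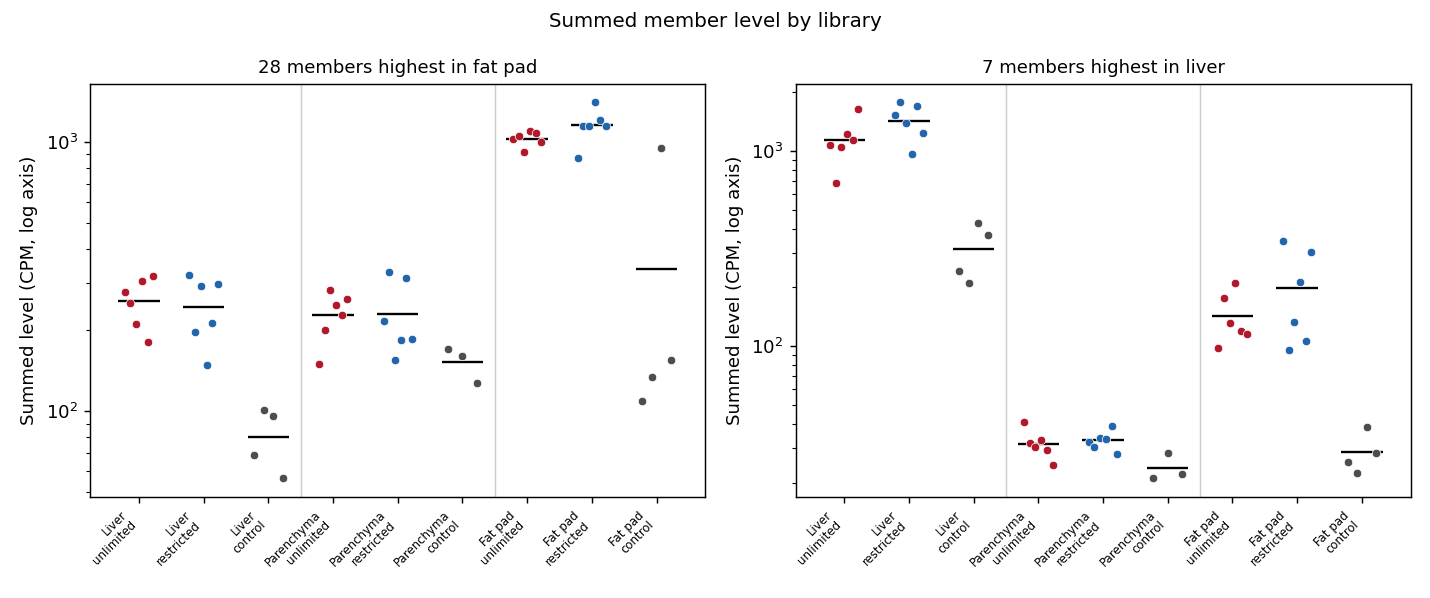
Summed CPM (log axis) of the 28 members highest in fat pad (left) and the 7 highest in liver (right) in each library, by tissue and diet; points are libraries and lines are group means. On the left, control livers lie at 56.5 to 101 CPM below all other livers, and library 18 labelled fat pad control lies at 949 CPM, apart from the other 3 at 109 to 155 CPM.

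Within liver, the difference between the unlimited and the restricted diet was not used by the rule and was tested with edgeR over 14030 genes. None of the 38 members was called at an adjusted p under 0.05, where 0% of all genes were higher and 0.0143% lower. The median log2 fold change of the members was -0.06, and that of all genes 0.02. A single member had an unadjusted p under 0.05, as did 1984 of the 14030 genes. This was ENSBTAG00000010841, named after its values were seen, at 277 ± 67.6 CPM in unlimited and 392 ± 36.6 CPM in restricted liver (SD, n = 6 each). The edgeR log2 fold change was -0.65 ± 0.19 (SE, adjusted p = 0.165). DESeq2 called 1 member, lower in unlimited liver, where it called 0.682% of 13486 genes higher and 1.97% lower. The side on which most members lay depended on the scaling: 24 of the 38 had a higher mean CPM in unlimited liver, but 16 of the 38 had a positive log2 fold change in the TMM-scaled fit. No member had all unlimited livers above all restricted ones or all below them, where 0.902% and 0.343% of 12524 genes did.

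In parenchyma, 18 members were higher in unlimited than in control calves, and none was called between restricted and control calves. Parenchyma levels by diet were not used by the rule, although control numbers 18 and 21 occur in both tissues and the labels do not say whether they are the same calves. In unlimited against control parenchyma, 37 of the 38 members had enough reads to be tested. Of these, 18 rose in unlimited calves, 0 fell and 19 did not pass, by edgeR over 15119 genes. Over all genes tested, 7.42% were higher and 5.02% lower. The median log2 fold change was 1.1997 over the 37 members and -0.01 over all genes. Of the 28 members highest in fat pad, 16 rose, and of the 6 tested members highest in liver, 0 were called. The count was 14 to 19 when each library was left out in turn. Over all genes, 3.53% to 7.91% were then higher and 2.35% to 5.27% lower.

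The 2 members of lowest p had 6 to 24 reads in each control parenchyma library and 24 to 146 in each unlimited one. ENSBTAG00000024726 had 2.27, 5.59 and 6.68 CPM at the lowest, median and highest in unlimited parenchyma, against 0.733, 0.954 and 0.874 CPM in the 3 control libraries. This was a log2 fold change of 2.80 ± 0.38 (SE; adjusted p = 0.00183 in edgeR). ENSBTAG00000007237 had 3.31, 6.59 and 8.07 CPM in unlimited parenchyma, against 0.879, 1.53 and 0.404 CPM in control parenchyma. The difference came to 2.93 ± 0.43 on the log2 scale (SE; adjusted p = 0.0024 in edgeR). Neither gene overlapped between these groups. In restricted parenchyma they had 1.81 to 8.37 CPM and 2.27 to 11.3 CPM, again above every control library. In liver the first had 7.38 to 13.6 CPM in unlimited, 4.27 to 18.7 CPM in restricted and 0.894 to 2.40 CPM in control calves. The second had 6.97 to 11.7, 3.19 to 10.8 and 0.179 to 3.01 CPM in the same groups.

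**Figure D4:**
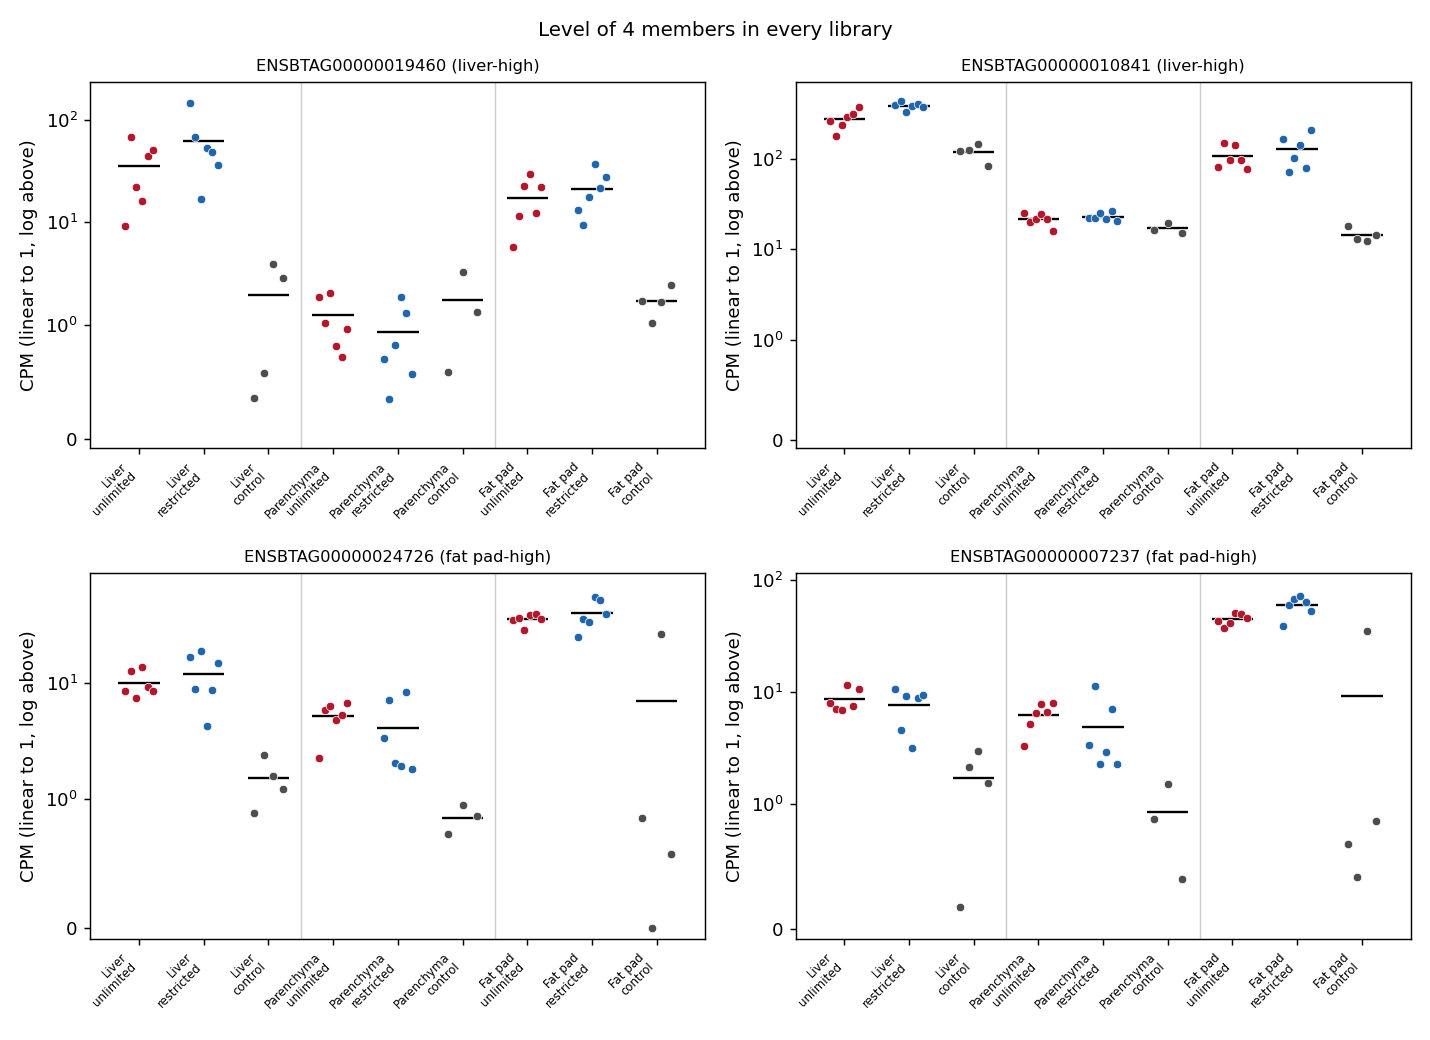
CPM (linear up to 1, log above) of 4 members in every library by tissue and diet; points are libraries and lines group means. The upper genes are highest in liver and the lower ones in fat pad, and library 18 labelled fat pad control stands at 26.6 and 35.3 CPM for the lower genes while the other 3 of that group are below 1 CPM.

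In restricted against control parenchyma, no member was called by edgeR among 37 tested, where 0.228% of 14881 genes were called higher and 0.101% lower. At an unadjusted p under 0.05 there were 22 members, all higher in restricted calves, against 2165 of the 14881 genes in either direction, and 33 of the 37 had a positive log2 fold change. The median was 1.13 over the members and 0.01 over all genes, and the lowest adjusted p of a member was 0.0984. DESeq2 called 11 members, all higher, where 2.85% of 15653 genes were higher. Without restricted library 8 edgeR called 4, all higher, where 1.11% of 14913 genes were. When libraries 1 and 2 titled PAR joined the parenchyma controls it called 6 of 35 tested, all higher, where 0.946% of 14378 genes were. Both comparisons share the 3 control libraries, so they are not independent of each other. Over all 12 unlimited and restricted libraries, 5 of the 32 members at a mean of 2 CPM or more had every parenchyma control below every other library, and 1.45% of 12795 genes did.

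Unlimited and restricted parenchyma were then compared directly. Of 37 members tested, 1 rose in unlimited calves and 0 fell, against 7.88% higher and 4.73% lower among 14117 genes. The median log2 fold change was 0.16 over the members and -0.02 over all genes. ENSBTAG00000010077 had 4.06, 9.50 and 14.3 CPM at the lowest, median and highest in unlimited parenchyma and 1.03, 3.91 and 5.50 CPM in restricted parenchyma. Unlimited and restricted libraries overlapped. The 3 control libraries had 3.15, 4.45 and 6.05 CPM. This member was among the 18 higher in unlimited than in control parenchyma, with a log2 fold change of 1.31 ± 0.36 there (SE; adjusted p = 0.0347 in edgeR), and at -0.24 ± 0.46 in restricted against control parenchyma it was not called. The fitted log2 fold change was 1.55 ± 0.37 (SE; adjusted p = 0.0157 in edgeR). When the assigned share of each library entered the fit, the adjusted p was 0.0749 and no member was called. In the test of whether this response differed between parenchyma and liver, it was the lone member called, with a difference of 1.66 ± 0.45 on the log2 scale (SE; adjusted p = 0.0248 in edgeR), where 5.21% of 15629 genes were higher and 2.19% lower. It had 7.42 ± 2.36 CPM in unlimited and 7.06 ± 1.47 CPM in restricted liver (SD, n = 6 each). Without number 4, 15 or 16 its adjusted p was 0.0794, 0.0770 or 0.0549.

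Parenchyma and fat pad were compared over unlimited and restricted calves, leaving the control libraries out. Of the 38 members, 32 were lower in parenchyma, 3 were higher and 3 did not pass by edgeR, where 34.5% of 16077 genes were lower and 31.8% higher. The 28 members grouped as highest in fat pad were all among the 32, a direction that their grouping by the same libraries fixes. The median log2 fold change was -1.97 over the members and -0.02 over all genes. Of the 35 members at 2 CPM or more in fat pad, 30 had all 12 fat pad libraries above all 12 parenchyma libraries, against 21% of 13613 genes. ENSBTAG00000010721 had 14.4, 20.2 and 27.8 CPM in unlimited parenchyma against 87.2, 97.2 and 112 CPM in unlimited fat pad (lowest, median and highest). In restricted calves it had 18.3, 24.4 and 39.2 CPM in parenchyma against 90.8, 104 and 126 CPM in fat pad. No parenchyma library reached a fat pad library, and the log2 fold change was -1.80 ± 0.12 (SE; adjusted p = 1.59e-12 in edgeR). ENSBTAG00000000949 had 11.8 ± 1.26 CPM in unlimited parenchyma, against 35.7 ± 2.59 CPM in fat pad of the same diet (SD, n = 6 each). Over both diets it was lower in parenchyma by a log2 fold change of -1.04 ± 0.07 (SE; adjusted p = 2.09e-12 in edgeR). Its lowest unlimited fat pad library, 32.4 CPM, lay above its highest unlimited parenchyma library, 12.9 CPM.

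Of the 3 members that were higher in parenchyma, those of lowest p differed in their liver levels. ENSBTAG00000033299 had 3.47 ± 0.938 CPM in unlimited and 4.55 ± 1.68 CPM in restricted parenchyma, against 1.07 ± 0.979 and 1.08 ± 0.605 CPM in fat pad of these diets (SD, n = 6 each). The log2 fold change was 2.18 ± 0.32 (SE; adjusted p = 1.39e-06 in edgeR). Liver lay far above both tissues, at 29.2 to 87.0 CPM in unlimited and restricted calves and 9.52 to 28.6 CPM in control calves. ENSBTAG00000011545 had 24.7 ± 5.46 and 32.2 ± 12.9 CPM in unlimited and restricted parenchyma, against 19.1 ± 2.80 and 16.8 ± 4.52 CPM in unlimited and restricted fat pad. It was higher in parenchyma by 0.98 ± 0.15 on the log2 scale (SE; adjusted p = 3.69e-06 in edgeR), although its libraries overlapped between the tissues.

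In fat pad, unlimited against restricted calves gave 0 called members of 37 tested in edgeR, and 0 of 15203 genes were called, or 0%. Over all genes, 1316 had an unadjusted p under 0.05. At an unadjusted p under 0.05 there were 4 members, all lower in unlimited calves, and DESeq2 called 0 members. The median log2 fold change of the members was -0.15, and that of all genes 0.00. A positive log2 fold change was found for 7 of the 37.

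Against the libraries labelled fat pad control, 14 members rose in unlimited and 15 in restricted fat pad, where many other genes were also called. Among 37 members tested, restricted fat pad had 15 higher and 1 lower in edgeR, and over all 15712 genes 12.6% were higher and 12.9% lower. Unlimited fat pad had 14 higher and 1 lower, and over all 15441 genes 13.8% were higher and 13.7% lower. The median log2 fold changes were 1.75 in unlimited and 1.87 in restricted calves, with -0.08 and -0.06 over all genes. Without library 18, 33 members were higher and 1 lower in each comparison, of 37 tested in unlimited and 38 in restricted calves. Over all genes, 23.1% were then higher and 21.3% lower in unlimited calves, and 20.6% higher and 18.6% lower in restricted calves. The member medians without it were 2.99 in unlimited and 3.03 in restricted calves, with 0.00 and 0.03 over all genes. Both comparisons use the same control libraries, of which 3 lay nearest to parenchyma. How far the difference in tissue accounts for these counts was not tested.

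ENSBTAG00000010841 had 77.6, 98.1 and 150 CPM in unlimited and 71.0, 123 and 212 CPM in restricted fat pad (lowest, median and highest). Libraries 1, 2, 18 and 21 labelled fat pad control had 18.2, 13.2, 12.3 and 14.3 CPM. All 4 lay below every other fat pad library, library 18 included. The log2 fold changes were 2.72 ± 0.26 in unlimited (SE; adjusted p = 7.71e-05 in edgeR) and 2.93 ± 0.35 in restricted fat pad (SE; adjusted p = 0.000268). ENSBTAG00000019460 did not overlap either, with 5.68 to 29.6 CPM in unlimited and 9.43 to 37.0 CPM in restricted fat pad against 1.03 to 2.44 CPM in the 4 libraries labelled control. In restricted fat pad this was 3.40 ± 0.44 on the log2 scale (SE; adjusted p = 0.000437 in edgeR). ENSBTAG00000000660 had 18.4 to 27.3 CPM in unlimited fat pad against 1.88, 4.34, 5.98 and 1.78 CPM in libraries 1, 2, 18 and 21. The fitted difference was 2.62 ± 0.33 on the log2 scale (SE; adjusted p = 0.000389 in edgeR). For these 3 genes library 18 also lay below every unlimited and restricted fat pad library, as did 14 of the 35 members at 2 CPM or more when all 4 labelled controls are counted, against 13.8% of 13613 genes. Without library 18 ENSBTAG00000010841 had log2 fold changes of 2.60 for unlimited and 2.82 for restricted calves, ENSBTAG00000019460 had 3.31 for restricted calves and ENSBTAG00000000660 had 2.91 for unlimited calves, and all passed the threshold.

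Library 18 labelled fat pad control was at or above the lowest unlimited or restricted fat pad library for 24 of the 38 members. Of these, 18 were among the 28 highest in fat pad. The same count over all genes is not given, so nothing is read from it. The other 3 libraries labelled control were below all 12 for 32 of the 35 members at 2 CPM or more in fat pad, against 27% of 13613 genes. ENSBTAG00000024726 had 35.6 ± 3.85 CPM in unlimited and 39.9 ± 11.5 CPM in restricted fat pad (SD, n = 6 each), against 0.852, 0, 26.6 and 0.580 CPM in libraries 1, 2, 18 and 21. Libraries 1, 2 and 21 held 5, 0 and 14 reads of it, and its level in control parenchyma was 0.733 to 0.954 CPM. In all 6 control libraries that lay near parenchyma, 4 members were below every unlimited and restricted parenchyma library, and all 4 were among the 28 highest in fat pad. They were among 32 members at 2 CPM or more in parenchyma, and 0.563% of 12795 genes were as low. ENSBTAG00000033299 was the lone member called lower in either diet than in the labelled controls, at 0.192 to 2.79 CPM in unlimited and 0.419 to 2.15 CPM in restricted fat pad against 3.24, 4.75, 3.13 and 8.49 CPM in libraries 1, 2, 18 and 21. The log2 fold changes were -2.37 ± 0.65 in unlimited (SE; adjusted p = 0.0219 in edgeR) and -2.40 ± 0.49 in restricted fat pad (SE; adjusted p = 0.00541). The call in unlimited calves did not pass without control library 21 (adjusted p = 0.0652 in edgeR), unlimited library 3 (0.0503) or 15 (0.052), or libraries 1 and 2 (0.0564). Without library 18 the log2 fold changes were -2.59 in unlimited (adjusted p = 0.00647 in edgeR) and -2.61 in restricted fat pad (adjusted p = 0.00113).

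**Figure D5:**
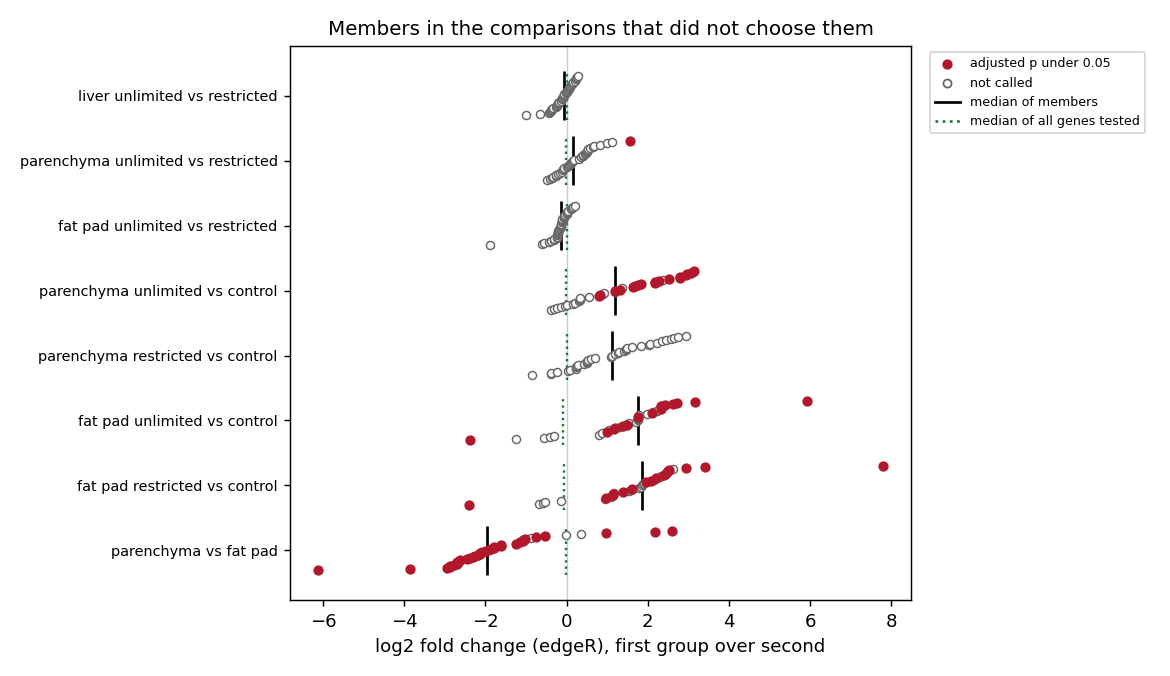
Log2 fold change (first group over second) of each tested member in 8 comparisons that did not choose the members; filled points passed an adjusted p under 0.05, black bars are member medians and dotted bars the medians of all genes tested. The points centre near 0 for unlimited against restricted in each tissue, lie mostly to the right against control in both mammary tissues, and mostly to the left for parenchyma against fat pad.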

How the data were processed

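The deposited values are read counts per Ensembl gene, 1 table per library with 27607 genes and 5 summary entries. The submitters' processing notes list FastQC, STAR 2.7.8, HTSeq 1.99.2, DESeq2 and the cattle assembly ARS-UCD1.2, in no stated order. Whether counting used strand is not given in the sources used here. Overlapping and antisense genes therefore cannot be told apart. All libraries were sequenced in 1 pool with paired reads of 150 cycles, per the labels' protocols. Of 48 samples in the labels, 47 were used, and parenchyma control number 2 was not analysed here. Summary entries were kept out of every total and test. Of the uniquely placed reads, 21.7% to 46.4% fell in genes, and the rest were in the entries for no gene or an ambiguous gene. Only library 1 of control liver and library 1 labelled fat pad control had unaligned reads listed.

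From these counts, CPM was computed on the sum of gene rows and the members were found by the rule. The members, groups of members and comparisons were chosen with earlier results of these data known. Diet comparisons were fitted on their 2 groups with edgeR 4.0.16 (R 4.3.3; TMM, filterByExpr with a minimum count of 10 and total of 15, robust quasi-likelihood F test). Parenchyma against fat pad and the interaction were fitted on 4 groups. Adjusted p-values are Benjamini-Hochberg over all genes tested, with calls under 0.05. The method was run on simulated data for liver unlimited against restricted, parenchyma unlimited against control and parenchyma against fat pad. The other comparisons were not simulated, and the outcome is not given here. The alternatives were DESeq2 1.42.0, RLE size factors, no low-count filter, the assigned share as a covariate, other control libraries, and each library left out. Named members were the 2 of largest ratio and, for each comparison, up to 2 called members of lowest p in each direction. No libraries held identical counts. The planned marker and pathway lists could not be run without gene names. No promoter or protein sequences were used here.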

Additional observations from a re-analysis of the deposited data

Results flagged for a closer look

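Among 96 groups of named member levels and sums, 12 held 1 library well apart from the others. A rate of about 1 in 20 would hold for independent, normally distributed values. The groups share libraries, and the sum of the 28 members highest in fat pad holds several of the flagged members. No excess is therefore read from the 12 flags. Library 18 labelled fat pad control accounted for 6 of them. It was at 18.9 CPM for ENSBTAG00000010077 (others 1.95 to 3.24), at 26.6 CPM for ENSBTAG00000024726 (others 0 to 0.852) and at 35.3 CPM for ENSBTAG00000007237 (others 0.413 to 0.869). It was at 37.4 CPM for ENSBTAG00000011545 (others 14.8 to 18.1), at 127 CPM for ENSBTAG00000010721 (others 10.1 to 22.5), and at 949 CPM for the sum of the 28 members highest in fat pad (others 109 to 155).

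Restricted parenchyma library 13 was at 7.87 CPM for ENSBTAG00000033299 (others 3.20 to 4.30) and at 56.3 CPM for ENSBTAG00000011545 (others 20.4 to 32.9). Restricted liver library 16 was at 45.9 CPM for ENSBTAG00000011545 (others 20.6 to 26.7). For ENSBTAG00000000949, number 16 of restricted calves stood apart in parenchyma at 20.7 CPM (others 15.3 to 16.3) and in fat pad at 45.1 CPM (others 31.8 to 36.5), and unlimited liver library 11 was at 20.3 CPM (others 7.95 to 12.4). The response of ENSBTAG00000010077 to unlimited over restricted feeding was larger in parenchyma than in liver by 1.66 on the log2 scale, by the interaction test given above.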

How the results depend on the processing

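The number of members was 59 on TMM-scaled library sizes, 31 of them among the 38, and 20 at a ratio of 3 or more. Leaving out 1 liver library gave 37 to 97 members. The count of members called in parenchyma of unlimited against control calves stayed within 1.5 times under all 14 alternatives, at 14 to 22. Over all genes, 3.53% to 10.3% were higher and 2.35% to 6.98% lower in these fits. The count for parenchyma against fat pad was 35 to 36 under its alternatives. Over all genes, 22.6% to 32% were then higher and 26.6% to 34.6% lower. For unlimited against restricted calves, DESeq2 called 1 member in liver, where 0.682% of genes were higher and 1.97% lower. In parenchyma it called 3, where 9.33% were higher and 6.8% lower. With the assigned share as a covariate, 0 members were called in parenchyma, where 3.75% of genes were higher and 1.67% lower. Leaving out a library there gave 1 to 2, where 4.73% to 10.4% were higher and 2.36% to 6.06% lower. For restricted against control parenchyma the count was 11 with DESeq2, where 2.85% of genes were higher and 1.21% lower. It was 6 when the PAR-titled libraries joined the parenchyma controls, where 0.946% were higher and 0.431% lower. With a library left out it was 0 to 4, where 0.0132% to 1.11% were higher and 0% to 1.01% lower. Against the libraries labelled fat pad control the count was 8 in restricted calves without the PAR-titled libraries. Over all genes, 8.62% were then higher and 9.09% lower. With a library left out the count was 10 to 34 in restricted calves. It was 10 without control library 1 or 2 and 34 without control library 18. Over all genes, 10.3% to 20.6% were higher and 9.42% to 18.6% lower. In unlimited calves the count was 10 to 34 with a library left out, where 10.7% to 23.1% were higher and 9.19% to 21.3% lower. For the interaction DESeq2 called 2, where 7.43% of genes were higher and 4.69% lower. Leaving out a number gave 0 to 2, where 2.91% to 5.71% were higher and 0.743% to 2.75% lower. The causes were not tested.

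The fits with the number as a replicate block gave 36 members for parenchyma against fat pad and 1 for the interaction. Same-numbered libraries of these tissues deviated together in part. The correlation was over 0.1 in 7 of 12 pairs for parenchyma and fat pad and in 8 of 12 for parenchyma and liver. The library of the other tissue that correlated best with a parenchyma library had its number in 6 of 12 cases for fat pad and 7 of 12 for liver. The main fits of both comparisons treat same-numbered libraries as independent. For 14 results on named members, 210 of 218 alternatives kept direction and call, 8 kept the direction alone, and 0 reversed. Low depth limits members with few reads in control liver.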
